A study of Mus musculus with 6 samples.

Results

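The EGR, NR4A and IER immediate-early genes were examined in RNA-seq libraries of AML12 cells, a hepatocyte cell line of the mouse. The set held 10 of the 25330 genes in the deposited tables, namely Egr1, Egr2, Egr3, Nr4a1, Nr4a2, Nr4a3, Ier2, Ier3, Ier5 and Srf, each found by its symbol. Of the 6 libraries, 3 came from normoxic wild-type cells (Control, 21% O2) and 3 from wild-type cells that spent 6 h at 1% O2 in medium without serum and glucose and were then reoxygenated for 2 h (H/R). All cells had been grown with 10% fetal bovine serum, ITS Liquid Media Supplement and 40 ng/mL dexamethasone. Oxygen and medium changed together, so their effects cannot be told apart, and every H/R library was taken after reoxygenation, for which the labels do not name the medium. The labels do not say whether the 3 libraries of a group came from separate cultures, so every p-value below measures only the spread between these libraries. The 10 genes were chosen with their counts in the same libraries known. Their differences between H/R and Control are therefore given as a description without a test, and tests are given only for genes of the same pathways that are not among the 10. Those pathway lists were also written with earlier results of these libraries known. Their p-values and counts are thus not independent evidence of a direction.

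Immediate-early genes are transcribed within minutes of a stimulus from factors that are already present in the cell, without the need for new protein. Growth factors and stress act on many of them through MAP kinases, which phosphorylate the ternary complex factors (Elk1, Elk3, Elk4) bound together with serum response factor (SRF) at the CArG box, and others respond to CREB at the cAMP response element. The products are mostly short-lived transcription regulators. EGR proteins are zinc finger factors that are restrained by the NAB corepressors, NR4A proteins are orphan nuclear receptors linked in liver to glucose production, and of the IER proteins, IER2 and IER5 are related nuclear proteins whereas IER3 shares only the name.

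Total counts lay between 20438746 and 21854790 per library, and the mitochondrial share of counts between 1.32% and 1.57%. The epithelial and hepatocyte markers used for the cell type check (Alb, Ttr, Afp, Apoa1, Hnf4a, Foxa2, Krt8, Krt18) all had counts in every library, with a summed RPKM (reads scaled to gene length and library total) of 2492 to 2702 in Control and 3731 to 3761 in H/R, most of it from the keratins. Krt8 and Krt18 were both higher after H/R, by 0.66 on the log2 scale, whereas 5 of the 8 markers fell at an adjusted p under 0.05 (edgeR), against 31.8% of all tested genes. Of these, 3 fell by at least 2-fold, namely Alb, Ttr and Afp, against 4.27% of all tested genes. The median log2 fold change of the 8 was -0.70. The part of this shift in the results below was not tested. Of 10 markers of endothelial cells, macrophages, leukocytes and stellate cells, 8 had 3 counts or fewer in every library. The exceptions were Des, with 7 to 13 counts, and Csf1r, with 42 to 57 counts in Control and 60 to 79 in H/R. Csf1r, a macrophage marker, rose by 0.63 on the log2 scale (edgeR, adjusted p = 0.00362), and 17.8% of its exon length is shared with another gene. The summed RPKM of the 10, most of it from Csf1r, was 0.531 to 0.719 in Control and 0.712 to 0.887 in H/R. Control replicate 1 stood apart, with a share of the ribosomal transcript Rn18s-rs5 of 0.601% against 0.133% to 0.201% in the other libraries and with 542 counts of Alb against 132 and 209 in the other controls and 43, 31 and 37 in H/R. Without it the log2 fold changes of the 8 genes that could be fitted moved by less than 0.2.

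After H/R the set did not move as 1 block. Egr1 went from nearly silent to the highest RPKM of the 10 genes. Its rank above Srf depends on the Srf gene model, described below. Egr2, Ier3 and Srf were between 1.9-fold and 4.92-fold higher, and Nr4a1, Ier2 and Ier5 were higher by less than 1.6-fold. Nr4a2 was lower, and Egr3 and Nr4a3 stayed at or under 2 counts in every library. The log2 fold changes came from edgeR's quasi-likelihood fit on counts scaled by the TMM method, which sets the libraries against each other by the bulk of their genes, and 8 of the 10 genes passed edgeR's filter on low counts. Of these 8, 3 reached a 2-fold higher level and 0 a 2-fold lower level, where 8.52% of the 14020 tested genes were called (adjusted p under 0.05 and at least 2-fold), 4.25% higher and 4.27% lower. The H/R libraries lay wholly above the Control libraries for 7 of the 8 and wholly below for 1, and the same was true of 32.5% and 33.5% of all tested genes, 65.9% together. Since the genes were picked on this contrast, nothing is read from these shares. Counts below are listed in the order of replicates 1, 2 and 3.

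**Figure D1:**
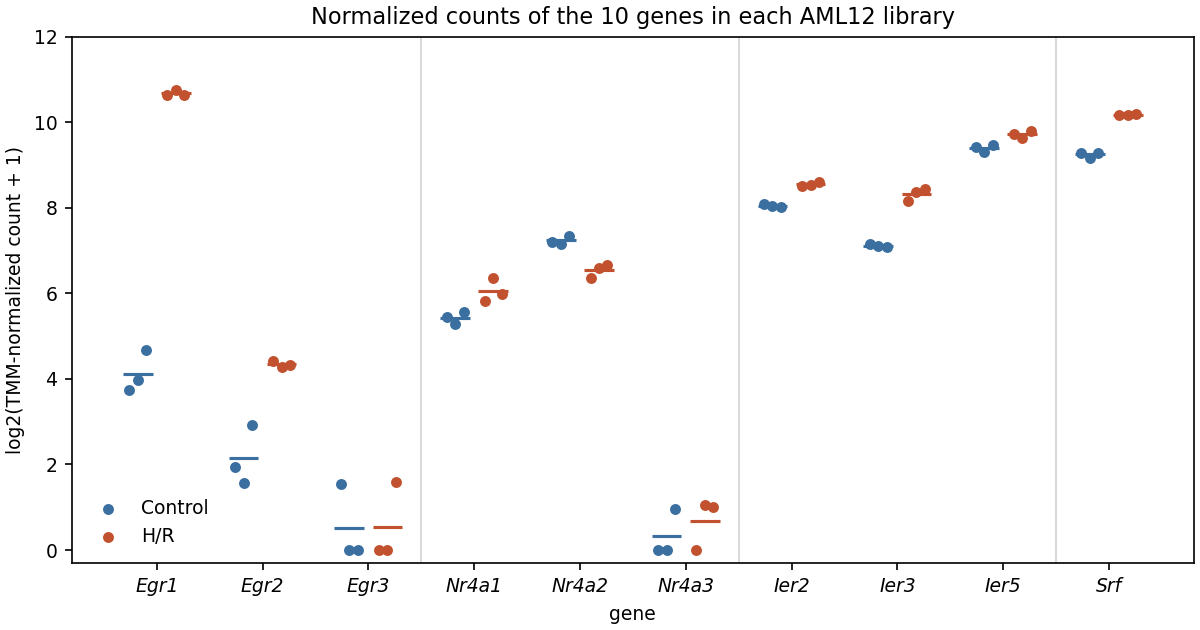
Normalized counts of the 10 genes on the y axis, as log2(TMM-normalized count + 1), with 1 point per library, 3 Control (blue) and 3 H/R (orange) libraries per gene and a bar at the mean of the plotted values. Egr1 shows the widest gap between the groups, Nr4a2 is the only gene with all H/R points below the Control points, and Egr3 and Nr4a3 stay near 0 in both groups.

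Egr1, a zinc finger factor that is a classic first responder to serum and stress, had 13, 15 and 26 counts in Control against 1484, 1594 and 1584 in H/R. All 3 H/R libraries were within a narrow band and far above the Control libraries. The normalized count was 17.1 ± 6.46 (SD, n = 3) in Control and 1633 ± 74.6 (SD, n = 3) in H/R, a log2 fold change of 6.56 with a standard error of 0.108, or 94.4-fold. Only 2 of the 14020 tested genes had a larger log2 fold change. The Control level rests on 54 counts over 3 libraries. The ratio of the summed counts, scaled by the effective library sizes, was 95.01. Its exact 95% interval for counting error alone was 72.7 to 127. The value without Control replicate 3, which held 26 of these 54 counts, was 6.91, and without Control replicate 1 it was 6.37. On the RPKM scale, Egr1 moved from a range of percentiles from 21.1 to 26.1 of the genes with reads in the Control libraries to percentiles from 83.2 to 83.8 in the H/R libraries. The gene lies on chromosome 18 of GRCm38, at 34859823 to 34864984 on the plus strand.

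Egr2, a relative of Egr1 best known for its role in myelination, had 3, 2 and 7 counts in the Control libraries and 19, 17 and 19 in the H/R libraries. The groups did not overlap, but Egr2 passed the count filter through its H/R libraries, and its H/R level remained low. The summed counts were 12 and 55, a scaled ratio of 5.04 with an exact 95% interval for counting error of 2.67 to 10.3. The fitted log2 fold change was 2.30 (SE 0.440), and 2.94 without Control replicate 3, the library that held 7 of the 12 counts. Per length, Egr1 outweighed Egr2 in the H/R libraries by far. Egr1 held 98.1% to 98.6% of the summed RPKM of the 3 EGR genes there and Egr2 held 1.39% to 1.66%. In the Control libraries the share of Egr1 was 55.8% to 85.0%, from a summed RPKM of only 0.187 to 0.369, so the Control shares rest on a few reads.

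Egr3 had 2, 0 and 0 counts in Control and 0, 0 and 2 in H/R, and is at the floor of 3 counts in both groups, so no fold change is given. The gene model behind this count was short. The exons of Egr3 in the tables, on chromosome 14 from 70077445 to 70080157, cover 32.1% of the exon bases that GENCODE release M21 gives the gene on the same build and stop before its annotated end at 70082614, so reads from the rest of the transcript were not counted. For Egr1, Egr2, Nr4a2, Nr4a3 and the 3 IER genes the models covered 100% of the GENCODE bases, for Srf 90% and for Nr4a1 70.5%. The Srf model was also longer, with 4093 exon bases against 2893 in GENCODE and 2603 shared. On this minus-strand gene it reaches down to 46546839, past the annotated 3′ end at 46548329. The level of Srf per length depends on this model. None of the 10 genes shared exon sequence with another gene in the tables, so antisense or overlapping transcripts listed there do not enter their counts.

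The NR4A receptors act without a known ligand, so that their amount largely sets their activity. Nr4a1 (also Nur77) had 45, 39 and 49 counts in Control and 52, 75 and 62 in H/R. The lowest H/R library was close to the highest Control library. The normalized count was 42.3 ± 4.06 in Control and 66.3 ± 13.0 in H/R (SD, n = 3 each), a log2 fold change of 0.65 (SE 0.196), and without H/R replicate 2, the highest library, it was 0.48. Nr4a2 (also Nurr1) had 155, 146 and 172 counts in Control and 75, 89 and 101 in H/R. Here every H/R library was below every Control library. Its normalized count was 150.4 ± 10.3 in Control and 92.6 ± 10.5 in H/R (SD, n = 3 each), a log2 fold change of -0.70 (SE 0.130). Its level was thus 1.62 times as high in Control. Nr4a3 (also Nor1) had 0, 0 and 1 counts in Control and 0, 1 and 1 in H/R, which is at the floor in both groups.

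With the opposite moves of Nr4a1 and Nr4a2, the lead of Nr4a2 per length in Control was no longer seen after H/R. Nr4a2 held 67.7%, 69.5% and 68.0% of the family's summed RPKM in Control and 46.8%, 41.8% and 49.7% after H/R. The RPKM ratio of Nr4a1 to Nr4a2 was 0.476, 0.438 and 0.467 in the Control libraries and 1.14, 1.38 and 1.01 in the H/R libraries, so in H/R replicate 3 the levels were about equal. The model of Nr4a1 lacks part of the GENCODE exon bases, which bears on the level of the ratio, but the same model was used in every library, so no order of the 2 genes is read from the H/R values. The summed RPKM of the 3 receptors was 2.65 ± 0.241 in Control and 2.26 ± 0.322 in H/R (SD, n = 3 each), and its ranges over the libraries overlapped.

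**Figure D2:**
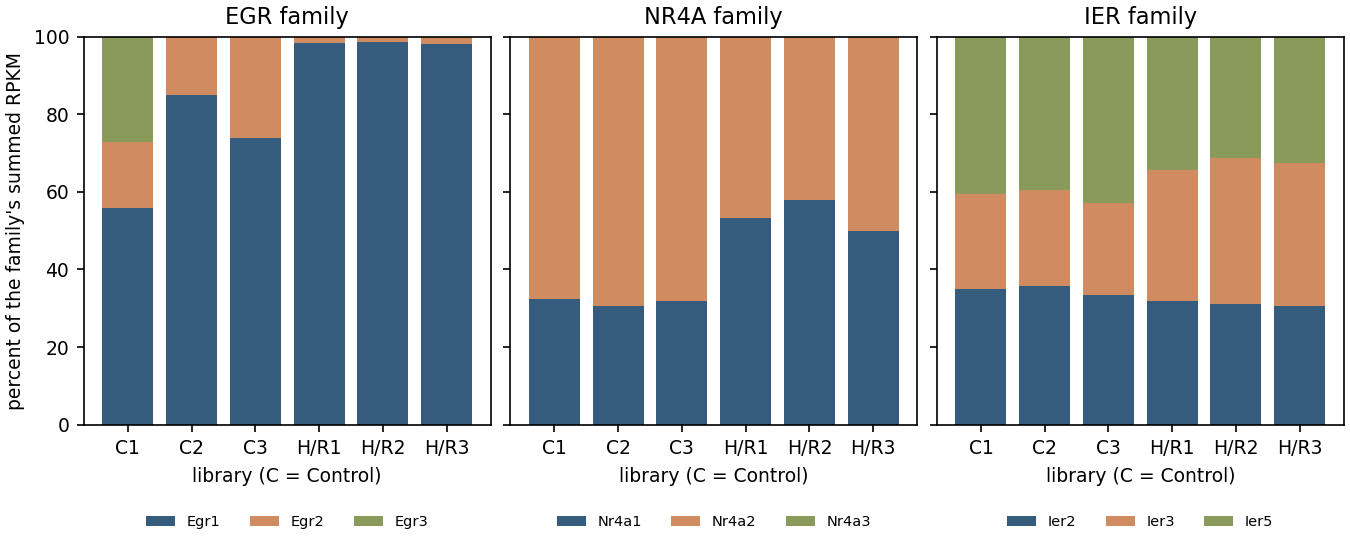
Share of the summed RPKM of each family, in percent on the y axis, held by each of its genes in the 3 Control and 3 H/R libraries on the x axis, with 1 panel each for EGR, NR4A and IER. Egr1 fills 98.1% or more of the EGR bar in each H/R library, and Nr4a1 grows from 30.5% to 32.3% in Control to 50.01% to 57.8% in H/R.

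The promoter windows of the 3 NR4A genes are shown because each carried the same kind of element. The windows are those of RefSeq on GRCm38.p6, 250 bases before to 50 bases after each start site, 5′ to 3′ on the gene's strand. Capitals mark the core of the cAMP response element (TGACG or its reverse complement CGTCA), the EGR site (GCGNGGGCG or its reverse complement) and the NF-kB site. The windows lie at chr15:101266596-101266895 for Nr4a1 (plus strand), chr2:57123954-57124253 for Nr4a2 (minus strand) and chr4:48045055-48045354 for Nr4a3 (plus strand).
Nr4a1: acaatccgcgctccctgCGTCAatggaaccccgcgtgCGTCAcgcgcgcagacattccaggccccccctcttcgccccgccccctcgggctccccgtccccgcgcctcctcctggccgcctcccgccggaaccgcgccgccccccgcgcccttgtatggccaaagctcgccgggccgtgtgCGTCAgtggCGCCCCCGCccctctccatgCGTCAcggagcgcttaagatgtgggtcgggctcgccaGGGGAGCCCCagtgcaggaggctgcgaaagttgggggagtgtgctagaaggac
Nr4a2: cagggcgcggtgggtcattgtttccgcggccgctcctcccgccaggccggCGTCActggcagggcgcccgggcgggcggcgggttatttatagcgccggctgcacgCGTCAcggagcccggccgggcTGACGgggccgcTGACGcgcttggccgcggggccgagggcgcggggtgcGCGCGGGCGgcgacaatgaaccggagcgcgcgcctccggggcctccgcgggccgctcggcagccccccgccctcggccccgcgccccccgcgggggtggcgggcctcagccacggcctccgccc
Nr4a3: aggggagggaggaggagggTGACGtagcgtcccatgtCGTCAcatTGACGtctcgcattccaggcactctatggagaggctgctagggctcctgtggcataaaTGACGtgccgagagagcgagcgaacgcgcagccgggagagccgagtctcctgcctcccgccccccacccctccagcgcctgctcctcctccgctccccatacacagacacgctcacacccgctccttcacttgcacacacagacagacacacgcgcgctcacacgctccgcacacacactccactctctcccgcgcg
Each of these 3 windows held 4 cAMP response cores. At least 1 was found in 20.8% of all 32851 windows, and the share with 4 was not counted. The full element TGACGTCA was in none of the 3. Windows of Nr4a1 and Nr4a2 also held 1 EGR site each, at -60 to -52 and at -74 to -66 from the start site, against 5.55% of all windows with such a site, and Nr4a1 held 1 NF-kB site across its start, from -3 to 7. Whether these elements bear on the counts of the 3 genes was not tested. A match of letters is a description and does not show that a factor was bound.

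All 3 IER genes were expressed in Control cells, at 140 counts or more per library. Ier3 (also IEX-1), a target of NF-kB and p53 that modulates cell survival, had 150, 140 and 144 counts in Control and 266, 307 and 346 in H/R. The H/R libraries were all well above the Control libraries, and they varied more. Its normalized count was 138 ± 3.48 in Control and 321 ± 30.9 in H/R (SD, n = 3 each), a log2 fold change of 1.22 (SE 0.101) or 2.33-fold. Ier2, a nuclear protein linked to cell motility, had 288, 270 and 273 counts in Control and 337, 342 and 388 in H/R, with a log2 fold change of 0.50 (SE 0.083). Ier5, a cofactor that helps to activate the heat shock factor HSF1, had 719, 645 and 750 counts in Control and 786, 740 and 885 in H/R. In raw counts its groups overlapped, because H/R replicate 2 had fewer counts than Control replicate 3. After TMM scaling the normalized counts were 629.1 to 706.1 in Control and 798.1 to 884.4 in H/R and did not overlap, and the log2 fold change was 0.33 (SE 0.061). Scaled by library totals alone it was 0.22, while the median over all tested genes was -0.12 under that scaling and -0.01 under TMM.

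Per length, Ier5 led the family in each Control library, with an RPKM of 10.0 ± 0.688 against 8.50 ± 0.135 for Ier2 and 5.98 ± 0.0908 for Ier3 (SD, n = 3 each). In H/R the RPKM values were 11.7 ± 0.687 for Ier5, 11.2 ± 0.493 for Ier2 and 12.9 ± 1.34 for Ier3, so that neighbours in this order lay within about 1 SD of each other. The ratio of Ier3 to Ier2 was 0.698 to 0.710 in the Control libraries and 1.06 to 1.21 in the H/R libraries. Ier3 thus moved from the lowest of the 3 in every Control library to the highest in H/R replicates 2 and 3. In H/R replicate 1 the RPKM was 11.5 for Ier3 and 11.7 for Ier5.

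Srf, which encodes the DNA-binding factor at the CArG box and is itself induced by serum, had 660, 591 and 659 counts in Control and 1062, 1067 and 1164 in H/R. The H/R libraries were all higher and, after scaling, hardly differed from each other. The normalized count was 607 ± 26.8 in Control and 1153 ± 9.83 in H/R (SD, n = 3 each), a log2 fold change of 0.92 (SE 0.056) or 1.9-fold. In the Control libraries the RPKM of Egr1 was 0.0180 to 0.0360 times that of Srf, and in the H/R libraries 1.24 to 1.36 times. Per length, the order in H/R was therefore Egr1 (16.6 ± 0.700), then Ier3, Srf (12.8 ± 0.228), Ier5 and Ier2, followed at a distance by Nr4a1 (1.22 ± 0.237), Nr4a2 (1.04 ± 0.125) and Egr2 (0.258 ± 0.0138), all as RPKM with SD and n = 3. Ier3 and Srf did not differ beyond their spread, nor did Ier5 and Ier2, nor Nr4a1 and Nr4a2. The ratio of Egr1 to Srf and the place of Srf in this order depend on the Srf gene model. Of its 4093 exon bases, 2603 are shared with GENCODE, and whether reads fell on the rest was not tested. The RPKM values of the 10 genes together summed to 33.2 to 36.0 in Control and 64.9 to 70.2 in H/R.

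The windows of Srf, Egr2 and Ier3 are shown as examples with and without the element that SRF binds. All of these genes were higher after H/R, and whether any element bears on this was not tested. Capitals mark the CArG box, the core of the cAMP response element, the EGR site and the NF-kB site, searched on both strands in RefSeq windows of the same 300 bases on GRCm38.p6. They lie at chr17:46556113-46556412 for Srf (minus strand), chr10:67537619-67537918 for Egr2 (plus strand, 1 of its 5 annotated start sites) and chr17:35821463-35821762 for Ier3 (plus strand).
Srf: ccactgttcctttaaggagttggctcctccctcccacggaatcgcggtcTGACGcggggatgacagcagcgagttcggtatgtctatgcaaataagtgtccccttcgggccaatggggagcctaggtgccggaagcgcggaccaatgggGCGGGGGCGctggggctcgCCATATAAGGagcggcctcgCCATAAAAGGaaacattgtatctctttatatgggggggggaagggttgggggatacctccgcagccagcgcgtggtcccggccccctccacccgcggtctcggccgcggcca
Egr2: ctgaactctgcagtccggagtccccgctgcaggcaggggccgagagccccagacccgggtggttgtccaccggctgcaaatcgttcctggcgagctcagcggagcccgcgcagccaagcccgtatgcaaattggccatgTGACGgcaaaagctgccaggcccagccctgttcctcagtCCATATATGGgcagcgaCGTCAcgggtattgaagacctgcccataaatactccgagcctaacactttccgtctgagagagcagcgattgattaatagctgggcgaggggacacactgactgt
Ier3: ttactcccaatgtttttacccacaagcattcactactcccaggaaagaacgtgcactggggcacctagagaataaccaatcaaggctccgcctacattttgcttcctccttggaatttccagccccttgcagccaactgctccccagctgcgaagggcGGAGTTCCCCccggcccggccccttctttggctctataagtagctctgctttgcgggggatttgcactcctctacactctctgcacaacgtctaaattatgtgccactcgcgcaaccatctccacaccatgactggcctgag
Srf held 2 CArG boxes, at -82 to -73 and at -62 to -53, next to an EGR site at -101 to -93 and an ETS site (CCGGAAG) at -122 to -116. This window of Egr2 held 1 CArG box at -72 to -63 between 2 cAMP response cores. Of the other 4 Egr2 windows, 3 also lie within the gene and held a CArG box. Those that begin at 67537620 and 67537680 overlap the window shown and hold the same box. The one that begins at 67537316 holds a different box. The window at the first start site, chr10:67535249-67535548, held neither a CArG box nor a cAMP response core but matches to the NF-kB site from -117 to -107. Only 1.63% of all windows held a CArG box and 8.86% the ETS site. The window of Ier3 held neither a CArG box nor a cAMP response element, and 1 NF-kB site at -92 to -83, against 8.46% of all windows. In the window of Ier5 none of these motifs was found. Other letters searched were AAAGGTCA (the NBRE, which NR4A receptors bind), found in 1.51% of all windows, and GAANNTTC (the heat shock element), found in 7.86%. Neither was in any of the windows of the genes described. The HIF core was searched as ACGTG, found in 19.6% of all windows, and as GCGTG, found in 32.4%. ACGTG was in windows of Egr2, Nr4a3 and Ier3, and GCGTG in those of Nr4a1, Nr4a2, Nr4a3 and Srf. The window of Ier5 held neither. The TATA box was searched as TATAAA, found in 13.6% of all windows. Of the 7 genes with a window, 5 had a cAMP response core, 3 an EGR site, 2 a CArG box and 2 a TATAAA match. Both TATAAA matches, in Nr4a2 and Srf, lay on the strand opposite to the gene. Egr2 was counted over its 5 windows, whereas the shares of all windows are per window. RefSeq windows of Egr1, Egr3 and Ier2 were not used here.

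**Figure D3:**
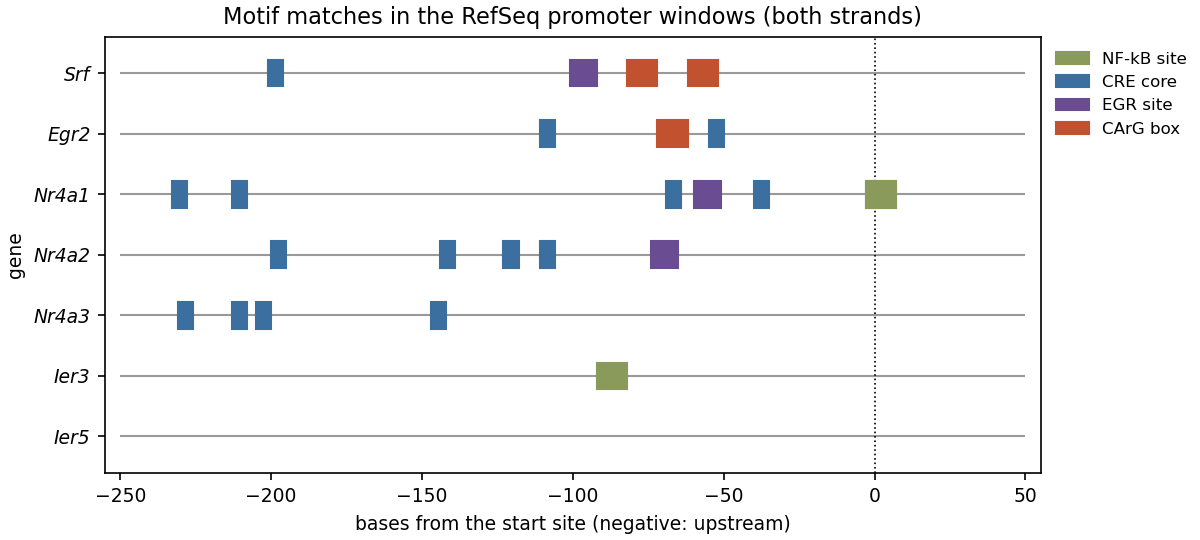
Positions of motif matches, in bases from the start site on the x axis, in 1 RefSeq window each of Srf, Egr2 (the start site shown in the text), Nr4a1, Nr4a2, Nr4a3, Ier3 and Ier5. Colored blocks are the CArG box, the core of the cAMP response element (CRE core), the EGR site and the NF-kB site on either strand, and the line of Ier5 carries none.

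The genes were compact. Their median span was 5938 bp against 17902 bp for all tested genes, 8 of the 10 spanned under 10 kb against 35.3% of the tested genes, and Ier2 and Ier5 consist of 1 exon. Their median exon length of 3337 bp was close to the 3513 bp of the tested genes. The 3′ untranslated regions were searched for AUUUA, written ATTTA in the DNA sequence, the core of the AU-rich elements that shorten the life of many immediate-early transcripts. The longest annotated 3′ untranslated region was used (GENCODE M21, sense strand). At least 1 ATTTA was found in 9 of the 10 genes, against 70.8% of 10849 tested genes. The median was 1.95 per kb against 1.34. Among the tested genes the share varied with length. It was 62.4% for 2173 genes with a median length of 733 bases and 83.2% for 2789 genes with a median of 1435 bases. The median per kb of these sets was 1.34 and 1.45. The 10 genes had a median length of 1208 bases, so nothing is read from their share. They include Egr3 and Nr4a3, which were not among the tested genes and had the longest regions (2645 and 3095 bases). Ier3 had the most per length, 5 in 613 bases, followed by Nr4a1 with 3 in 543 bases, and Ier2 had 0 in 755 bases. The stricter nonamer TTATTTATT occurred in 1 of the 10, Srf, at position 44 of its 754 bases (acggcaccacTTATTTATTgttgcctttt, nonamer in capitals), and in 8.19% of the tested genes.

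Among direct partners of the EGR, NR4A and IER proteins, Nab2 had the largest change. Of 5 tested relatives and cofactors, 4 rose and 0 fell at an adjusted p under 0.05 from edgeR's quasi-likelihood test, against 31.0% and 31.8% of all tested genes (62.8% together). At 2-fold 1 was called, against 8.52% of all tested genes. Their median log2 fold change was 0.39, and that of all tested genes was -0.01. Nab2, a corepressor that EGR1 is known to induce and that in turn restrains it, had 316, 294 and 365 counts in Control and 1247, 1224 and 1309 in H/R, a change of 2.09 on the log2 scale (SE 0.0645, edgeR, adjusted p = 1.78e-24). All H/R libraries were far above the Control libraries. However, 42.2% of the exon length of Nab2 is shared with Gm16229, Nemp1 and Stat6 on the opposite strand, so its count is uncertain. Its relative Nab1, which shares no exon sequence, rose by only 0.27 on the log2 scale (adjusted p = 6.71e-07 from edgeR). Rxrb, a dimer partner of NR4A1 and NR4A2, rose by 0.39, and Rxra had a log2 difference of 0.08 (edgeR, adjusted p = 0.271). Ier5l, a relative of Ier5, had a log2 fold change of 0.54 with an adjusted p of 0.0465 from edgeR, which was lost in 11 of 15 alternatives, among them the fit with the replicate number as a block (adjusted p = 0.0546), the fit without Control replicate 1 (adjusted p = 0.17) and each other fit that left out a library apart from Control replicate 2. Egr4 and Rxrg were not analysed here.

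**Figure D4:**
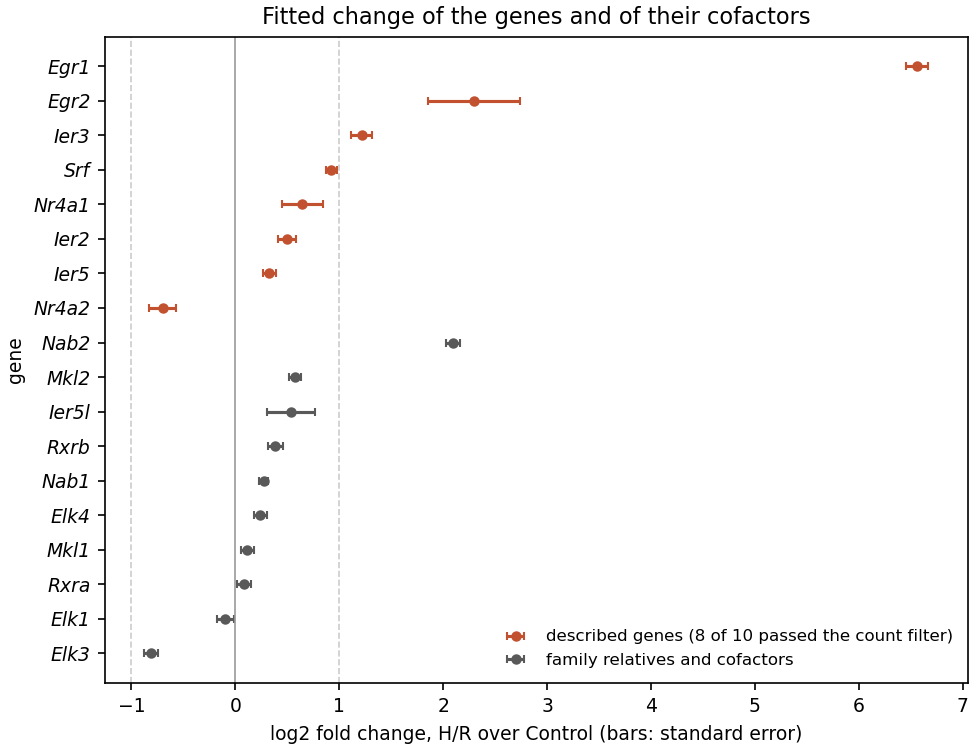
Log2 fold change of H/R over Control on the x axis, with bars for the standard error, for the 8 of 10 described genes that passed the count filter (orange) and for 10 relatives and cofactors (grey). Dashed lines mark 2-fold, and Egr1 at 6.56 stands apart from every other gene shown, while Elk3 and Nr4a2 are the lowest.

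The cofactors that bring signals to SRF moved in both directions. Of 5 tested, 2 rose and 1 fell at an adjusted p under 0.05 (edgeR), against 31.0% and 31.8% of all tested genes. These counts are near the shares of all genes, so nothing is read from them. At 2-fold 0 were called by edgeR or by DESeq2, against 8.52% of all tested genes with edgeR, and 3 had an unadjusted p under 0.05. Elk3, a ternary complex factor that represses in its resting state, fell from 720 ± 19.4 to 411 ± 16.1 normalized counts (SD, n = 3 each), a change of -0.81 on the log2 scale (edgeR, adjusted p = 4.71e-13). Every H/R library was below every Control library. Elk4 rose by 0.24 (adjusted p = 0.00187 from edgeR), which was lost when scaled by library totals alone (adjusted p = 0.0815) and in both limma fits on RPKM. Elk1 had a log2 difference of -0.09 (edgeR, adjusted p = 0.303), which passed the threshold under that scaling (-0.20, adjusted p = 0.0301 from edgeR) and in both limma fits. Of the actin-sensing coactivators, Mkl2 (also Mrtfb) rose by 0.58 (adjusted p = 3.75e-10 from edgeR), and Mkl1 (also Mrtfa) had 0.12 (adjusted p = 0.11 from edgeR). Myocd had at most 1 count.

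Genes of the MAP kinase pathways moved in both directions and by less than 2-fold. The 22 tested genes were RAS, RAF and MAP kinase genes and genes of kinases downstream of them. Of these, 10 rose and 8 fell at an adjusted p under 0.05 (edgeR), against 31.0% and 31.8% of all tested genes. At an unadjusted p under 0.05 there were 18. At 2-fold 0 were called by edgeR or by DESeq2, against 8.52% of all tested genes with edgeR. Their median log2 fold change was -0.0018. Mapkapk2, the kinase downstream of p38, rose from 1383 ± 66.5 to 2668 ± 183 normalized counts (log2 fold change 0.95, adjusted p = 3.89e-17 from edgeR) and passed 2-fold without H/R replicate 1 (1.00). Map2k1, a kinase in the middle of the RAS cascade, rose by 0.84 (adjusted p = 1.41e-16 from edgeR). Among 15 tested genes around CREB, 9 rose and 3 fell at an adjusted p under 0.05 (edgeR), against 31.0% and 31.8% of all tested genes. At 2-fold 1 was called, against 8.52% of all tested genes. That gene was Sik1, a kinase induced by CREB that shuts off its coactivators, which rose from 956 ± 81.8 to 2232 ± 151 normalized counts (log2 fold change 1.22, adjusted p = 1.96e-16 from edgeR). The kinases Sik3 and Prkacb rose by 0.83 each.

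Among 38 tested immediate-early genes outside the 3 families, 34 rose and 3 fell at an adjusted p under 0.05 (edgeR), against 31.0% and 31.8% of all tested genes. Of those that rose, 26 did so by at least 2-fold, against 4.25% of all tested genes. The median log2 fold change of the list was 1.39. This list was written with earlier results of the same libraries known and is not independent evidence of its direction. The largest changes were those of Fosb, Atf3, Dusp6 and Phlda1. Fosb, an AP-1 subunit, had 2, 4 and 0 counts in Control and 65, 55 and 51 in H/R, with a log2 fold change of 4.88 that was 5.81 without Control replicate 2 and 4.32 without Control replicate 3. Atf3, a stress-induced repressor, rose from 284 ± 32.1 to 3364 ± 92.5 normalized counts. Dusp6, a MAP kinase phosphatase, rose from 79.5 ± 5.45 to 693 ± 58.8, and Phlda1 from 456 ± 28.7 to 2979 ± 267 (SD, n = 3 each), though 33.0% of the exon length of Phlda1 is shared with another gene. The genes that fell were Nfkbiz (-0.70), Trib1 (-0.56) and Sgk1 (-0.17, log2 fold change), which were picked out after their values were seen.

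**Figure D5:**
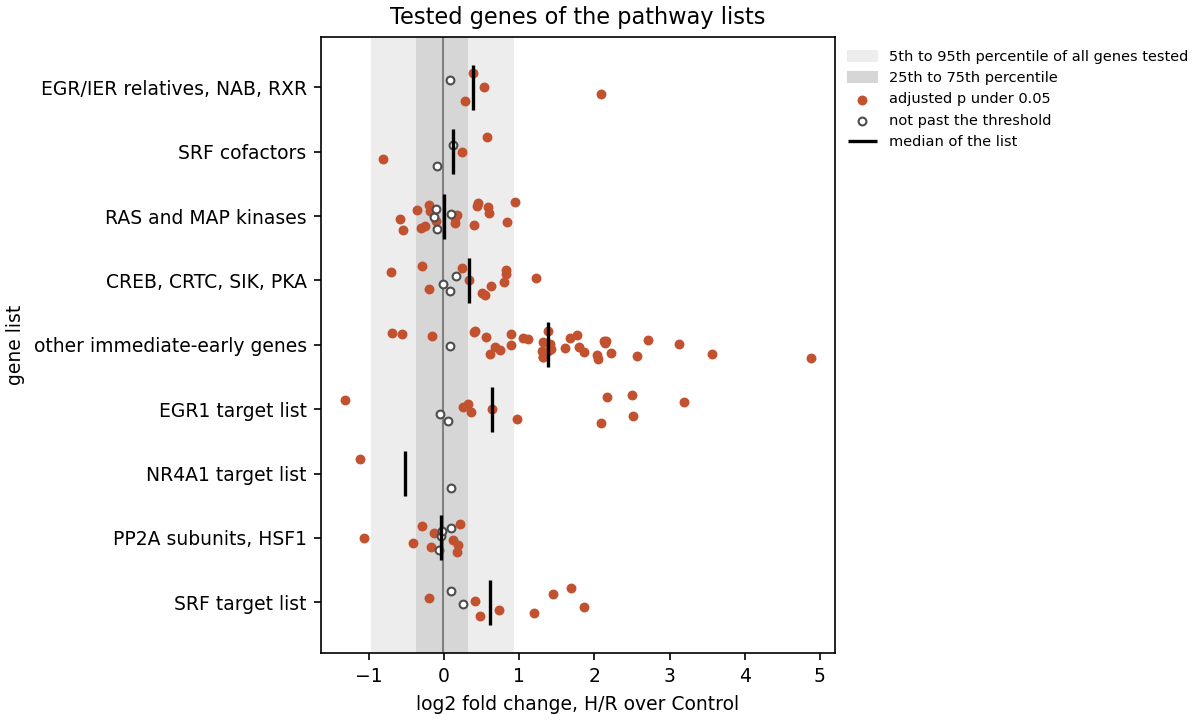
Log2 fold change of H/R over Control on the x axis for the tested genes of the pathway lists, 1 row per list, with filled points for an adjusted p under 0.05 (edgeR), open points otherwise and a black bar at the list's median. Grey bands show the spread of all 14020 tested genes, and the medians lie between -0.52 for the 2 tested genes of the NR4A1 target list and 1.39 for the other immediate-early genes.

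Genes described as targets of the 3 kinds of factor were counted as well. Of 13 tested genes on the EGR1 target list, 10 rose and 1 fell at an adjusted p under 0.05 (edgeR), against 31.0% and 31.8% of all tested genes. At 2-fold 5 were called higher, Nab2 among them, and 1 lower, against 4.25% and 4.27% of all tested genes. The list had a median log2 fold change of 0.64. Icam1, a leukocyte adhesion molecule, rose from 22.9 ± 3.26 to 211 ± 24.3 normalized counts (log2 fold change 3.20, adjusted p = 3.39e-18 from edgeR), and 11.7% of its exon length is shared with another gene. F3, which encodes tissue factor, rose from 203 ± 8.08 to 1165 ± 68.8 (log2 fold change 2.52). Thbs1 (thrombospondin) rose from 42.4 ± 10.1 to 240.6 ± 7.55 normalized counts, and Gdf15, a stress cytokine, by 2.17 on the log2 scale. Fgf2 fell by 1.32 on the log2 scale at 2 to 20 counts per library (adjusted p = 0.0102 from edgeR), with overlapping groups. Its log2 fold change was -2.04 without H/R replicate 3, and it was not past the threshold without H/R replicate 2 (-0.93, adjusted p = 0.0881) or with DESeq2 (adjusted p = 0.081). Pdgfa and Tgfb1 did not pass the threshold. Of the genes of glucose production on the NR4A1 target list, Eno3 and Slc2a2 could be tested. Eno3 had a log2 difference of 0.09 (edgeR, adjusted p = 0.252). The glucose transporter gene Slc2a2 had 41, 24 and 36 counts in Control and 9, 12 and 21 in H/R, a change of -1.12 on the log2 scale (edgeR, adjusted p = 0.00188), which was -0.96 without Control replicate 1 and -0.90 without H/R replicate 1, short of 2-fold. Fbp1 and Fbp2 had at most 5 counts, and G6pc was not analysed here.

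Of 10 tested cytoskeletal genes described as SRF targets, 7 rose and 1 fell at an adjusted p under 0.05 (edgeR), against 31.0% and 31.8% of all tested genes. At 2-fold 4 were called higher, against 4.25% of all tested genes, and the median log2 fold change was 0.61. Cnn2 (calponin 2) rose from 382 ± 2.92 to 1387 ± 84.4 normalized counts (log2 fold change 1.86, adjusted p = 8.81e-24 from edgeR). The focal adhesion genes Zyx and Fhl2 rose by 1.69 and 1.45, and Actg1 (cytoplasmic gamma-actin) by 1.19. Tpm1 fell by 0.19, and Acta2, a smooth muscle actin, had at most 1 count. Among the phosphatase 2A subunits and Hsf1, which IER proteins are known to contact, 4 of 13 rose and 5 fell at an adjusted p under 0.05 (edgeR). Of all tested genes 31.0% rose and 31.8% fell by that measure, so nothing is read from these counts. At 2-fold 1 was called, against 8.52% of all tested genes. That gene, Ppp2r2b, fell from 133 ± 8.56 to 63.25 ± 15.2 normalized counts (log2 fold change -1.07, adjusted p = 2.33e-07 from edgeR), and was under 2-fold without H/R replicate 2 or without H/R replicate 3. Ppp2r1b and Ppp2r5d fell by 0.42 and 0.29. Hsf1, the partner of IER5, rose by 0.18 (adjusted p = 0.0187 from edgeR).

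The genes with the most similar pattern were looked up among 10173 genes with a mean count of at least 100, by the Euclidean distance between their log2 CPM values (counts scaled by the effective library size) over the 6 libraries, each less its Control mean. For Egr1 these were Hspa1b (distance 1.23) and Hspa1a (1.34), near-identical heat shock genes between which reads could have been split. For Srf they were Ugcg (0.0618) and Apobec1 (0.0654), for Nr4a1 Fhl3 (0.211) and Pogz (0.228), and for Ier2 mt-Co1 (0.0204) and Pum2 (0.0419). With 2 groups of 3 libraries, a match by such a distance mostly reflects a similar size of the difference between the groups. The distance of Egr1 to its nearest gene was much larger than that of Srf, Nr4a1 or Ier2 to theirs. Egr1 and Hspa1b had log2 fold changes of 6.56 and 6.68. Their normalized Control counts were low, 17.1 ± 6.46 and 6.96 ± 3.78 (SD, n = 3 each). What sets this distance was not tested.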

How the data were processed

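The 6 libraries (3 Control, 3 H/R) were made with a stranded mRNA kit and sequenced with paired ends. The authors mapped reads to GRCm38 with a program printed as STRA in the methods. The submitters' processing notes name Trimmomatic 0.36, featureCounts, Subread 1.5.1 and edgeR 3.12.1, with no roles given, and the annotation release is not given in the sources used here. The deposited count is the whole number of reads on each gene, without normalization. The deposited RPKM, computed by the authors, could be recomputed from counts, lengths and library totals with a largest relative error of 1.13e-06. Groups and replicate numbers came from the sample titles.

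Counts were fitted over all genes in R 4.3.3 with edgeR 4.0.16 (filterByExpr, TMM, estimateDisp, robust glmQLFit, glmQLFTest, Benjamini-Hochberg over 14020 genes). Called means an adjusted p under 0.05 and a fold change of at least 2, the thresholds of the study. Standard errors were derived from the F statistic. Normalized counts are counts divided by the effective library size times its mean. Genes that never exceeded 3 counts were treated as at the floor. Intervals cover counting error only. Genes were matched by symbol, or an older symbol of the same gene. The scripts were checked on simulated counts with known changes.

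The 10 genes and all lists were chosen with earlier results of these data known. Named by rule were the 10 genes, their relatives and cofactors, up to 4 called genes per direction of each other list (where fewer than 2 were called, up to 2 past the adjusted p alone), and the 2 nearest genes of Egr1, Nr4a1, Ier2 and Srf. Other genes named were picked after their values were seen. A gene of the kinase list and a gene of the marker list are not reported here and were left out of their lists. Promoter windows were those of RefSeq (GRCm38.p6) and 3′ untranslated regions those of GENCODE M21. Alternatives were DESeq2 1.42.0, upper quartile scaling, library totals, no filter, a minimum of 10 counts per library, a replicate block, limma 3.58.1 on log2(RPKM + 1) and log2(RPKM + 0.1), leaving out each library, and leaving out genes that share exon sequence.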

Additional observations from a re-analysis of the deposited data

How the results depend on the processing

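The 8 fitted genes of the EGR, NR4A and IER families and Srf kept their direction in every alternative that gave a value. Egr1 ranged from 3.89 on log2(RPKM + 1) to 6.91 without Control replicate 3, and Egr2 from 0.25 on log2(RPKM + 1) to 2.94 without Control replicate 3, a pseudocount that shrinks low values by construction. Nr4a1 ranged from 0.27 to 0.75, Nr4a2 from -0.80 to -0.47, Ier2 from 0.36 to 0.52, Ier3 from 0.99 to 1.29, Ier5 from 0.20 to 0.36 and Srf from 0.74 to 0.94 on the log2 scale. At least 10 counts in every library left no value for Egr2. Fold changes of Egr3 and Nr4a3, which are at the floor, are not given for any alternative.

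Of all genes, 1195 were called (49.9% higher), 406 with limma on log2(RPKM + 1) and, among the fewer genes tested without those that share exon sequence, 772. Library totals made 37.0% of the called genes higher ones, and upper quartile scaling 41.3%. Without genes that share exon sequence, 0 of 4 relatives and cofactors were called (edgeR, with 3 at an adjusted p under 0.05 but under 2-fold), 2 of the EGR1 target list and 2 of the SRF target list. On the NR4A1 target list 0 were called with at least 10 counts in every library and in both limma fits. Of the IER partners 0 were called with limma on log2(RPKM + 1). With 1 library left out, called genes numbered 1211 to 1290 in all, 0 to 1 of the kinases, 0 to 1 of the NR4A1 target list and 0 to 1 of the IER partners. The causes were not tested.

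Replicate numbers gave no pairing of the libraries, since the deviations of same-numbered libraries correlated at -0.03, 0.00 and -0.01 for replicates 1, 2 and 3. With the replicate block 1200 genes were called, Egr1 was at 6.56, Nr4a2 at -0.70 and Srf at 0.92, each list kept its count of called genes, and of the named genes Ier5l lost its adjusted p under 0.05 (0.0546). Depth limits Egr3 and Nr4a3, and the Control levels of Egr1, Egr2 and Fosb.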
